A study of Mus musculus with 3 samples.

Results

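Nr2f2, Nr2f1, Tcf21, Maf, Osr2, Pdgfra and Pdgfrb are 7 regulators of the mesenchymal cells that lie between the follicles of the ovary and give rise to its stroma and theca. They were chosen by name, as 7 of the 53465 genes in the tables, and all 7 were present and detected. Ovaries of female C57BL/6 mice were dissociated and their cells captured in 3 single-cell libraries, 1 at each age: embryonic day 16.5 (E16.5, called ED17 in the title of that library), postnatal day 7 (PND7) and postnatal day 14 (PND14). No other treatment or genotype is given in the labels, and it is not stated how many animals each library pools. Levels are counts of captured mRNA molecules (UMIs, from the unique molecular identifier that tags each) summed over the cells of a class and scaled to a total of 1000000 (CPM). Since an age is 1 library, no difference below was tested, there is no replicate check, and each bracket holds an exact 95% interval that covers counting error only.

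Of 1554 cell barcodes 1548 were kept, and the libraries held 8743797 to 9065595 UMIs in all. Cells were sorted into classes by the summed UMIs of marker genes, none of which is among the 7. Stroma was gated on 14 matrix genes such as Col1a1 and Dcn, theca on 7 steroid-making genes such as Cyp17a1 and Cyp11a1, granulosa on 18 genes such as Foxl2 and Amh, and Hhip-high cells on the 4 genes Hhip, Tmem100, Ptch1 and Gli1 with at least 1 UMI of Hhip. Hhip-high is the name of a gate and not of a cell type. The theca class held 41 cells at PND14, with 1 at PND7 and 0 at E16.5. Hhip-high cells numbered 34 at PND7 and 80 at PND14, with 0 at E16.5. Granulosa cells numbered 73, 92 and 91 at E16.5, PND7 and PND14, and stroma cells 104, 287 and 279. The markers bore the names out at PND14: the 7 theca genes summed to 10391 CPM in theca and 150 CPM in stroma, and the 18 granulosa genes summed to 7990 CPM in granulosa and 443 CPM in stroma. At E16.5 the granulosa genes were less far apart: they summed to 3450 CPM in granulosa and 507 CPM in stroma. Single genes ran from 0 CPM for Hsd17b1 and Fshr to 1011 CPM for Fst in granulosa, with Amh at 1.32 CPM and Foxl2 at 195 CPM. Only Serpine2 was lower in granulosa (13.8 CPM) than in stroma (91.4 CPM) at E16.5. At PND7 the granulosa genes summed to 5124 CPM in granulosa and 502 CPM in stroma. Only Wnt4 was lower in granulosa (57.1 CPM) than in stroma (62.0 CPM) there, and Foxl2 stood at 320 and 160 CPM. Of the 73 granulosa cells at E16.5, 25 lay within 1.5 times of the gate. Of the Hhip-high cells 22 of 34 at PND7 and 19 of 80 at PND14 lay that near to theirs. The 4 Hhip-high genes summed to 931 CPM in Hhip-high cells and 295 CPM in stroma at PND7. At PND14 they summed to 1175 CPM in Hhip-high cells and 574 CPM in stroma. Hhip-high cells were thus less far from stroma by their markers than theca or granulosa. At PND14 Hhip stood at 169 CPM in Hhip-high cells and 17.2 CPM in stroma, and Tmem100 at 557 and 356 CPM.

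NR2F2 (COUP-TFII) and NR2F1 (COUP-TFI) are related orphan nuclear receptors that bind DNA as dimers, and NR2F2 is widely used as a mark of interstitial cells in the gonads. TCF21 is a basic helix-loop-helix factor of mesenchymal progenitors that works with E proteins such as TCF3 and TCF12 and is opposed by the ID proteins. MAF is a basic leucine zipper factor, OSR2 an odd-skipped zinc finger factor of developing mesenchyme, and PDGFRA and PDGFRB are receptor tyrosine kinases for platelet-derived growth factors. Theca cells make androgens around the growing follicle, and they arise from such mesenchyme while granulosa cells send Hedgehog ligands to it, of which Hhip, Ptch1 and Gli1 are response genes.

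Upstream sequences are shown for Tcf21 and Pdgfra, the regulators whose levels lay closest together across the classes and were lower in theca, and for Nr2f2, which stayed high in theca. They are the 250 bases before the RefSeq transcript start on GRCm38.p6, which the RefSeq table held for 4 of the 7 genes (Nr2f2, Nr2f1, Tcf21 and Pdgfra). Capitals mark matches, on either strand, to CANNTG (the E-box read by basic helix-loop-helix factors), AGGTCA (a nuclear receptor half-site), GACCACCCA (a GLI site), TATAAA or GGGCGG. Tcf21 lies at chr10:22820144-22820393 on the minus strand, Pdgfra at chr5:75152001-75152250 on the plus strand and Nr2f2 at chr7:70366747-70366996 on the minus strand.
Tcf21: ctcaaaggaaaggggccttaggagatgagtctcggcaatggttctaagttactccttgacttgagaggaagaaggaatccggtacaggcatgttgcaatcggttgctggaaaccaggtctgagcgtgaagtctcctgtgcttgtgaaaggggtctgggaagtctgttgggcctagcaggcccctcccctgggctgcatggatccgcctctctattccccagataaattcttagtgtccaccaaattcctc
Pdgfra: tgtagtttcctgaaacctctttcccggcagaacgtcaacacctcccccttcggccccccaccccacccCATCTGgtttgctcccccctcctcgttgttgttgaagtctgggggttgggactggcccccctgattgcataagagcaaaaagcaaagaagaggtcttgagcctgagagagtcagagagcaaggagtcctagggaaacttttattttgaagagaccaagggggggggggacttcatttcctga
Nr2f2: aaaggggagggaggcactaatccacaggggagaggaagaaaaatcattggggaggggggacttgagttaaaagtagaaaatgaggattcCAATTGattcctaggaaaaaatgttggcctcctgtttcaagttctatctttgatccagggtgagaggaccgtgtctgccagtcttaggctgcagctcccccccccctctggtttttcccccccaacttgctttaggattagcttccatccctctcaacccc
The Tcf21 window held none of the 5 motifs, and the Pdgfra and Nr2f2 windows held 1 E-box each and none of the others. Among 32851 windows of the same length 66.2% held CANNTG, 14.0% AGGTCA, 0.225% GACCACCCA, 12.4% TATAAA and 32.7% GGGCGG. Bases G and C made 52.4% of the Tcf21 window, 54.4% of the Pdgfra window and 50.0% of the Nr2f2 window. A match is a description of letters, and no match says only that these letters are not in this window.

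All 7 are protein-coding genes of the GENCODE M21 annotation on GRCm38. Nr2f2 (ENSMUSG00000030551.14) lies on chromosome 7, 70351944 to 70366735, and Nr2f1 (ENSMUSG00000069171.14) on chromosome 13, 78188973 to 78199757, both on the minus strand. Tcf21 (ENSMUSG00000045680.8) lies on chromosome 10, 22817281 to 22820174, and Maf (ENSMUSG00000055435.6) on chromosome 8, 115682942 to 115707794, both on the minus strand. Osr2 (ENSMUSG00000022330.5) lies on chromosome 15, 35296098 to 35303305, Pdgfra (ENSMUSG00000029231.15) on chromosome 5, 75152292 to 75198215, and Pdgfrb (ENSMUSG00000024620.11) on chromosome 18, 61045150 to 61085061, all on the plus strand. Genes on the opposite strand overlap Nr2f2 (B130024G19Rik), Nr2f1 (A830082K12Rik), Tcf21 (Gm10824), Maf (Gm15655) and Pdgfra (Gm42802 and Gm42803). The strand setting of the counting is not given in the sources used here, so reads shared with those genes cannot be told apart. A UMI is 1 molecule tagged near the 3′ end whatever the length of the transcript, so levels of different genes can be set side by side without a correction for length.

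Tcf21, Nr2f2 and Pdgfra were the most abundant of the 7 in postnatal stroma, and Nr2f1 was the least abundant in stroma at PND7 and PND14. At PND14 the stroma level was 514 CPM for Tcf21 (490 to 539), 270 CPM for Nr2f2 (253 to 289), 245 CPM for Pdgfra (229 to 263), 141 CPM for Osr2 (129 to 155), 60.1 CPM for Pdgfrb (52.0 to 69.0), 52.2 CPM for Maf (44.7 to 60.6) and 6.64 CPM for Nr2f1 (4.16 to 10.1). In that order Nr2f2 and Pdgfra, and Pdgfrb and Maf, have overlapping intervals, while the other neighbours do not. At E16.5 the order was another: Tcf21 at 361 CPM came before Maf and Nr2f2, whose levels of 270 and 269 CPM could not be told apart, and Osr2 at 7.75 CPM stood beside Nr2f1 at 11.4 CPM. These sums were spread over many cells: the 3 highest PND14 stroma cells held 80 of 1702 UMIs of Tcf21 and 76 of 896 UMIs of Nr2f2.

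**Figure D1:**
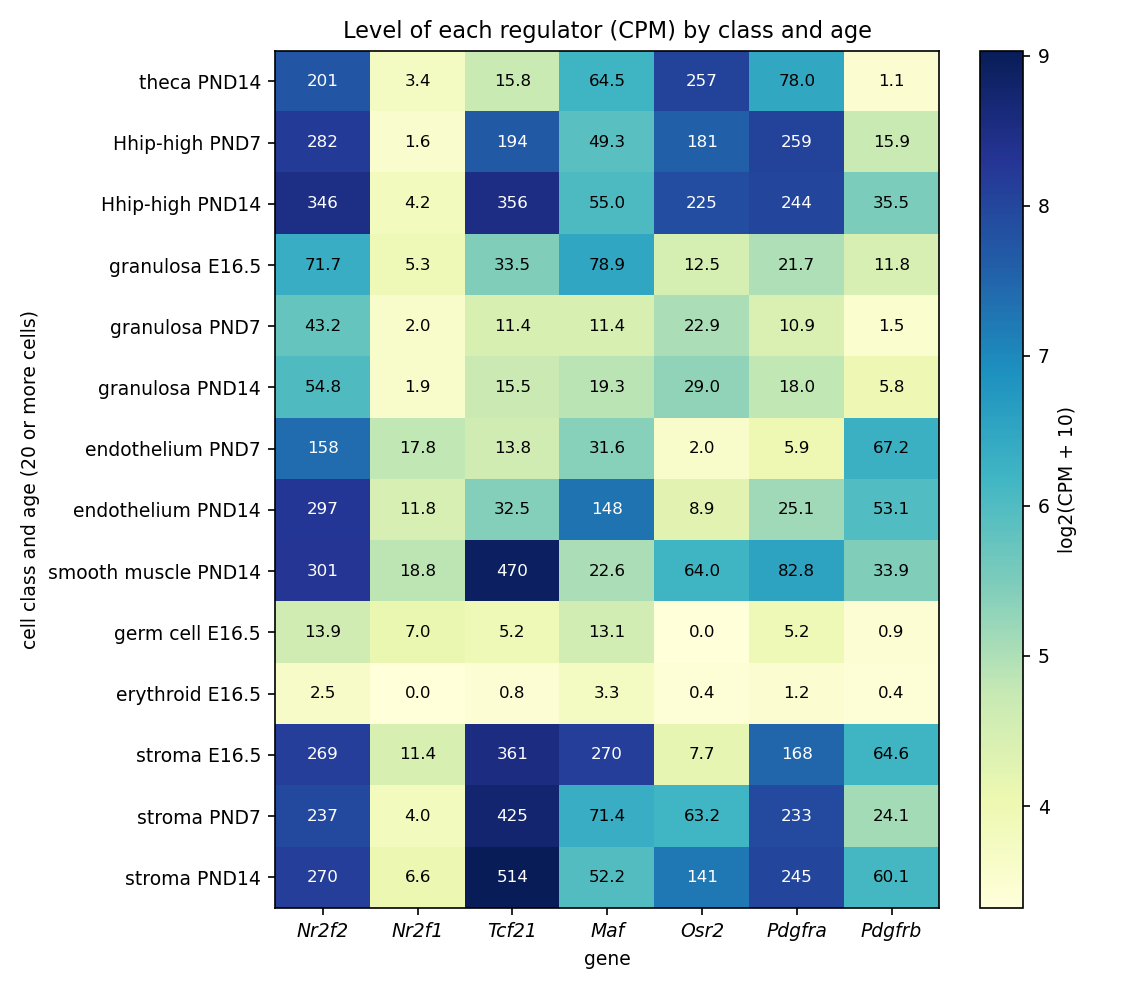
Level of each regulator (columns) in each class and age with 20 or more cells (rows). Printed values are CPM of the summed UMIs and the colour is log2(CPM + 10), 1 library per age. Theca at PND14 reads 257 CPM for Osr2 and 15.8 CPM for Tcf21, where stroma at PND14 reads 141 and 514 CPM.

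Theca cells of the PND14 library were almost without Tcf21 and Pdgfrb, had less Pdgfra, and had the highest Osr2 level of all classes with 20 or more cells. Tcf21 stood at 15.8 CPM in theca (14 UMIs; 8.66 to 26.6), against 356 CPM in Hhip-high cells and 514 CPM in stroma (1702 UMIs). The theca level was thus 32.4-fold lower than in stroma (19.3 to 59.5) and 22.5-fold lower than in Hhip-high cells (13.3 to 41.5), and 9 of its 14 UMIs came from 3 cells. Pdgfrb had 1 UMI in theca, against 51 UMIs in Hhip-high cells (35.5 CPM) and 199 UMIs in stroma (60.1 CPM). Its ratio of theca to stroma was 0.0188 (0.000474 to 0.106). Pdgfra stood at 78.0 CPM in theca (60.7 to 98.8), against 244 CPM in Hhip-high cells and 245 CPM in stroma. It was 3.15-fold lower than in stroma (2.46 to 4.08) and 3.13-fold lower than in Hhip-high cells (2.41 to 4.11). Pdgfrb made 1.43% of the summed Pdgfra and Pdgfrb UMIs there (0.0362 to 7.70), against 19.7% in stroma (17.3 to 22.2).

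Osr2, Nr2f2 and Maf were well detected in theca. Osr2 stood at 257 CPM in theca (224 to 292), against 225 CPM in Hhip-high cells (201 to 251) and 141 CPM in stroma (129 to 155). It was 1.82-fold the stroma level (1.54 to 2.13), while its ratio to Hhip-high cells of 1.14 (0.959 to 1.36) did not separate them. Nr2f2 stood at 201 CPM in theca (173 to 233), against 346 CPM in Hhip-high cells and 270 CPM in stroma, with ratios of 0.582 to Hhip-high cells (0.488 to 0.692) and 0.744 to stroma (0.630 to 0.875). Maf stood at 64.5 CPM in theca (48.8 to 83.5), against 55.0 CPM in Hhip-high cells and 52.2 CPM in stroma, and its ratio to stroma of 1.23 (0.898 to 1.67) did not separate them. Nr2f1 had 3 UMIs in theca, too few to compare. On the scale of log2(CPM + 10), 3 of 7 regulators (Tcf21, Pdgfra, Pdgfrb) were at least 2-fold lower in theca than in stroma, against 4.62% of the 12509 genes with 10 or more UMIs, and 0 of 7 were at least 2-fold higher, against 5.41%. Against Hhip-high cells the same 3 were at least 2-fold lower, of 6 regulators with 10 or more UMIs (4.41% of genes were), and 0 of 6 were higher (6.65%).

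The matrix genes that gate the stroma were lower in theca too. The 14 stroma markers summed to 2350 CPM in theca and 7676 CPM in stroma, which is 30.6% of the stroma level (29.3 to 32.0), and ran from 0% for Dpt to 304% for Postn. Pdgfra at 31.8% of its stroma level (24.5 to 40.7) lay on that share, Tcf21 at 3.08% (1.68 to 5.18) and Pdgfrb at 1.88% (0.0474 to 10.6) lay below it, and Nr2f2, Maf and Osr2 at 74.4%, 123% and 182% lay above it. The part of free RNA or of mixed cells in these values was not tested, and with the 14 theca cells that pass a further gate left out the Tcf21 ratio of theca to stroma was 0.0435 instead of 0.0308.

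**Figure D2:**
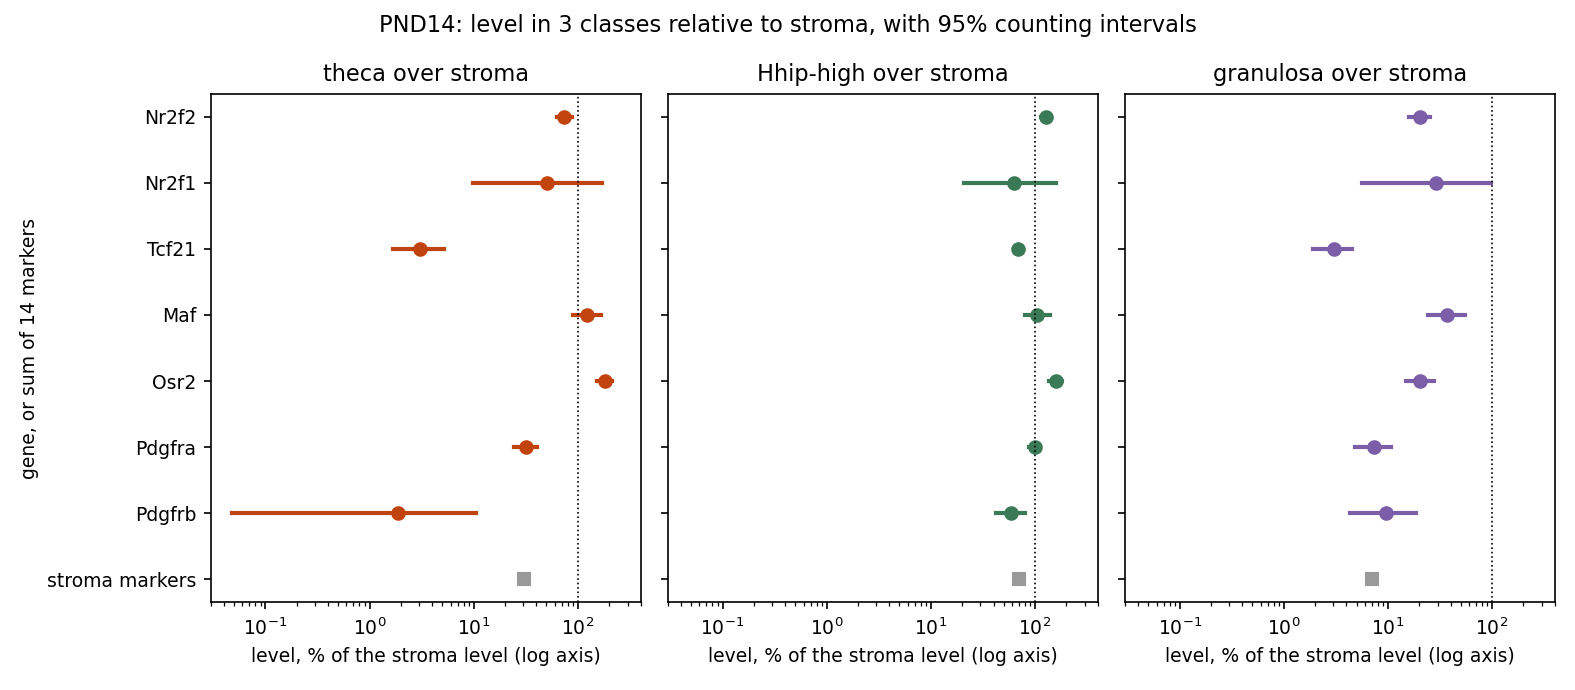
Level in theca, Hhip-high and granulosa cells at PND14 as a percent of the stroma level of the same library (log axis), for each regulator and for the sum of the 14 stroma markers (grey square). Points are ratios of CPM and lines are 95% counting intervals. Tcf21 lies at 3.08% in theca, 69.4% in Hhip-high cells and 3.01% in granulosa cells.

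Hhip-high cells had more Osr2 and less Tcf21 than stroma at both postnatal ages. Osr2 stood at 181 CPM in Hhip-high cells and 63.2 CPM in stroma at PND7, a ratio of 2.87 (2.27 to 3.61), and at 225 CPM in Hhip-high cells and 141 CPM in stroma at PND14, a ratio of 1.59 (1.38 to 1.84). Tcf21 stood at 194 CPM in Hhip-high cells and 425 CPM in stroma at PND7, which was 2.19-fold lower (1.82 to 2.65), and at 356 CPM in Hhip-high cells and 514 CPM in stroma at PND14, which was 1.44-fold lower (1.31 to 1.59). Both differences were thus smaller at PND14 than at PND7 in these libraries; whether they differ between ages was not tested. Of the summed Osr2 and Tcf21 UMIs, Osr2 made 94.2% in theca at PND14 (90.4 to 96.8), 48.3% and 38.7% in Hhip-high cells at PND7 and PND14, and 13.0% and 21.6% in stroma at those ages. At PND7 1 of 7 regulators was at least 2-fold higher (Osr2; 0.539% of all genes tested were) and 1 was at least 2-fold lower (Tcf21; 1.55% were). The Tcf21 call was lost with the mean over cells (ratio 0.539) and without cycling cells (ratio 0.529). At PND14 it was 0 of 7 in both directions, against 0.459% and 0.832%. The median Hhip-high cell held 16525 UMIs at PND7 and 15374 UMIs at PND14, against 9821 and 9119 UMIs in stroma. The part of this difference in depth in the ratios was not tested.

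Pdgfra and Maf did not separate these classes, while Pdgfrb was lower in Hhip-high cells at PND14. Pdgfra stood at 259 CPM in Hhip-high cells and 233 CPM in stroma at PND7 and at 244 CPM in Hhip-high cells and 245 CPM in stroma at PND14, with ratios of 1.11 (0.936 to 1.32) and 0.995 (0.876 to 1.13). Pdgfrb stood at 35.5 CPM in Hhip-high cells and 60.1 CPM in stroma at PND14, a ratio of 0.591 (0.426 to 0.807), and at PND7 the 10 UMIs in Hhip-high cells did not separate it (ratio 0.661; 0.306 to 1.28). Nr2f2 was 1.19-fold the stroma level at PND7 (1.01 to 1.40) and 1.28-fold at PND14 (1.14 to 1.43), but 1.01-fold at PND14 when the classes were taken from Leiden clusters, of which the Hhip-high one shares 40 of its 86 PND14 cells with the gate. Maf ratios of 0.691 (0.460 to 1.01) and 1.05 (0.796 to 1.38) did not separate the classes at PND7 and PND14. The smooth muscle markers summed to 2676 CPM in Hhip-high cells and 1140 CPM in stroma at PND14, and cycling cells made 30.0% of Hhip-high cells and 10.4% of stroma there; their part in these ratios was not tested beyond leaving out the cycling cells, which gave a PND7 Osr2 ratio of 3.13.

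Within stroma, Osr2 was higher and Maf lower at each later age, while Nr2f2, by summed UMIs, was slightly lower at PND7 than at the other ages. Osr2 had 15, 223 and 468 UMIs in stroma at E16.5, PND7 and PND14, or 7.75, 63.2 and 141 CPM. It was 8.15-fold higher at PND7 than at E16.5 (4.84 to 14.8), 2.24-fold higher at PND14 than at PND7 (1.90 to 2.64) and 18.2-fold higher at PND14 than at E16.5 (10.9 to 32.8). Maf had 522, 252 and 173 UMIs, or 270, 71.4 and 52.2 CPM, and was 3.78-fold lower at PND7 than at E16.5 (3.24 to 4.41) and 1.37-fold lower at PND14 than at PND7 (1.12 to 1.67). Nr2f2 stood at 269, 237 and 270 CPM, with ratios of 0.879 for PND7 over E16.5 (0.787 to 0.982), 1.14 for PND14 over PND7 (1.04 to 1.26) and 1.01 for PND14 over E16.5 (0.901 to 1.12). With the mean over cells the Nr2f2 ratio for PND7 over E16.5 was 0.982.

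Tcf21 and Pdgfra were higher after birth, and Pdgfrb was lowest at PND7. Tcf21 stood at 361, 425 and 514 CPM in stroma at E16.5, PND7 and PND14, with ratios of 1.18 (1.08 to 1.29) for PND7 over E16.5 and 1.21 (1.13 to 1.30) for PND14 over PND7. Pdgfra stood at 168, 233 and 245 CPM, with ratios of 1.39 (1.22 to 1.58) and 1.05 (0.956 to 1.16). Pdgfrb stood at 64.6, 24.1 and 60.1 CPM, which was 2.68-fold lower at PND7 than at E16.5 (2.02 to 3.58) and 2.50-fold higher at PND14 than at PND7 (1.93 to 3.26), so that the outer ages did not differ detectably (ratio 0.930; 0.740 to 1.17). Pdgfrb thus made 27.8% of the summed Pdgfra and Pdgfrb UMIs in stroma at E16.5 (23.7 to 32.2), 9.37% at PND7 (7.55 to 11.5) and 19.7% at PND14 (17.3 to 22.2). At E16.5, however, 3 of the 104 stroma cells held 42 of the 125 Pdgfrb UMIs. With the mean over cells the Pdgfrb ratio was 0.575 for PND7 over E16.5 and 1.30 for PND14 over E16.5. Nr2f1 stood at 11.4, 3.97 and 6.64 CPM from 22, 14 and 22 UMIs, 2.87-fold lower at PND7 than at E16.5 (1.40 to 6.06), and at PND14 its interval met both.

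At least 2-fold changes on the log2(CPM + 10) scale in stroma were Osr2 higher and Maf and Pdgfrb lower at PND7 against E16.5 (2% of all genes were higher and 1.7% lower), and Osr2 and Pdgfrb higher at PND14 against PND7 (0.506% higher and 1.11% lower). At PND14 against E16.5 they were Osr2 higher and Maf lower (2.23% higher and 2.75% lower). Both PND14 to PND7 calls lie near the threshold, and without the cycling cells or with a stricter gate neither passed it, with an Osr2 ratio of 2.00 under the stricter gate and a Pdgfrb ratio of 1.97 without the cycling cells. The Pdgfrb call for PND7 against E16.5 was lost with the mean over cells (ratio 0.575). Cycling cells made 19.2%, 25.1% and 10.4% of stroma at E16.5, PND7 and PND14. The stroma clusters also differ between libraries: 1 of them held 108 cells, 105 of them from E16.5. Therefore age, library and the mix of stromal cells cannot be told apart.

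**Figure D3:**
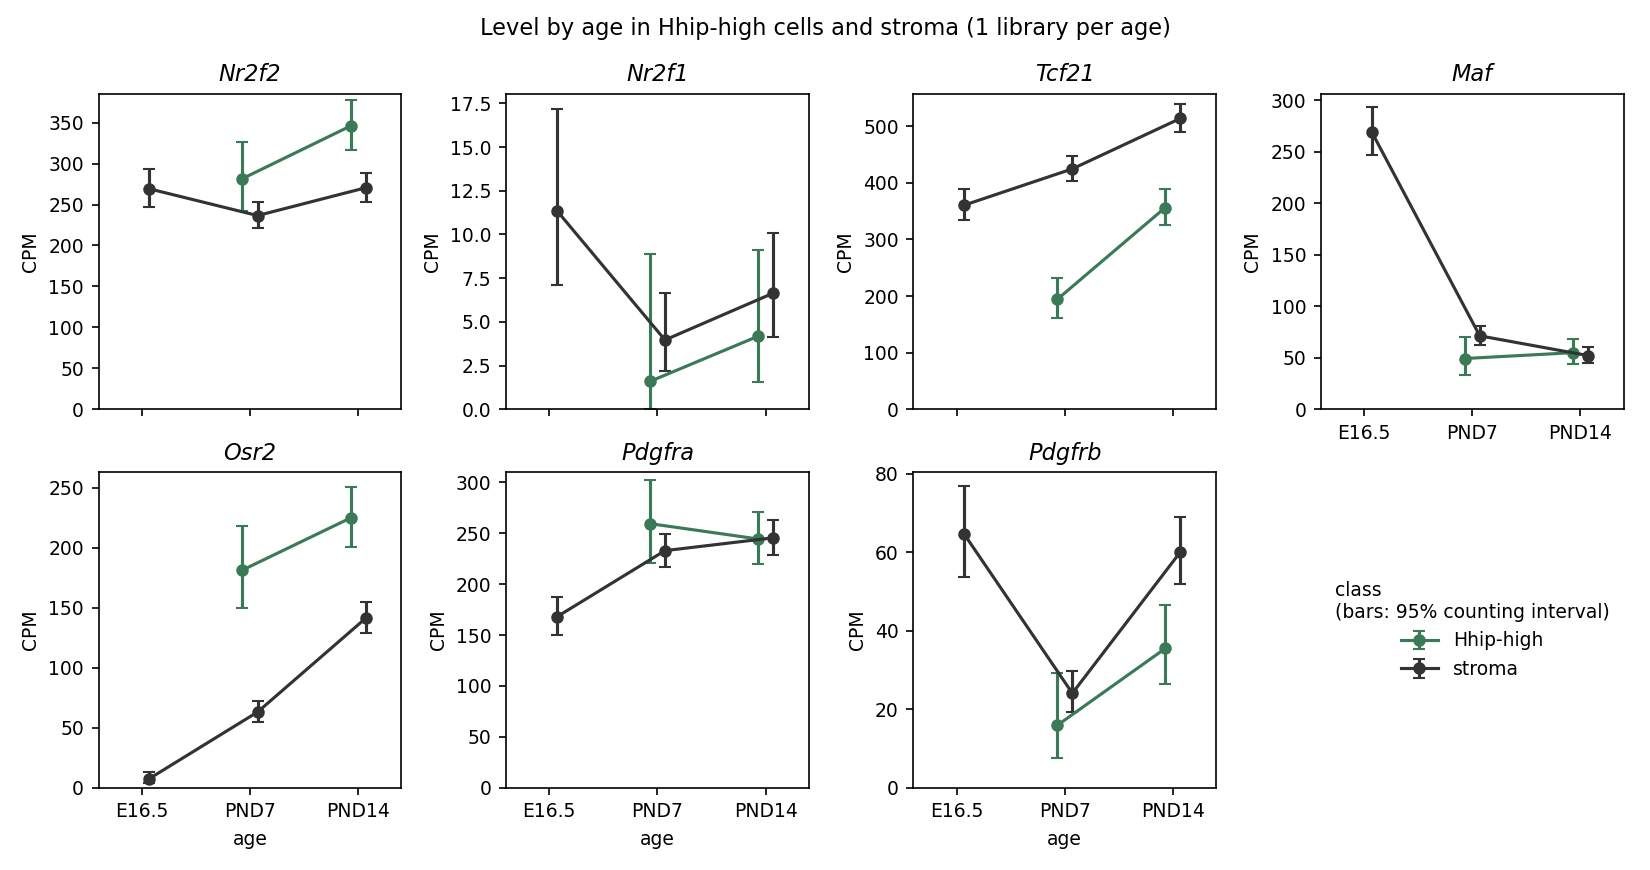
Level of each regulator (CPM, linear axes from 0) by age in Hhip-high cells and in stroma, 1 library per age, with bars for 95% counting intervals. Osr2 reads 7.75, 63.2 and 141 CPM in stroma at E16.5, PND7 and PND14, and Maf reads 270, 71.4 and 52.2 CPM.

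In Hhip-high cells Tcf21 was 1.84-fold higher at PND14 (356 CPM) than at PND7 (194 CPM), with an interval of 1.5 to 2.26. Nr2f2 stood at 346 CPM at PND14 and 282 CPM at PND7, a ratio of 1.23 (1.03 to 1.47). Pdgfrb stood at 35.5 CPM at PND14 and 15.9 CPM at PND7, a ratio of 2.23 (1.12 to 4.93), which was 1.35 without cycling cells. Osr2 stood at 225 CPM at PND14 and 181 CPM at PND7, a ratio of 1.24 (0.998 to 1.55). Pdgfra (244 CPM at PND14, 259 CPM at PND7) and Maf (55.0 CPM at PND14, 49.3 CPM at PND7) had ratios of 0.942 (0.780 to 1.14) and 1.11 (0.727 to 1.75). Of the 6 with 10 or more UMIs 0 passed 2-fold on the log2(CPM + 10) scale, against 1.18% of all genes higher and 1.08% lower.

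Granulosa cells held less of most of these regulators than stroma at each age, with Maf (E16.5) or Nr2f2 (PND7 and PND14) the highest. Tcf21 stood at 33.5, 11.4 and 15.5 CPM in granulosa cells at E16.5, PND7 and PND14, which was 10.7-fold (8.08 to 14.6), 37.2-fold (24.7 to 58.8) and 33.2-fold (22.2 to 52.0) lower than in stroma of the same library. Pdgfra stood at 21.7, 10.9 and 18.0 CPM, which was 7.73-, 21.3- and 13.6-fold lower than in stroma. Nr2f2 stood at 71.7, 43.2 and 54.8 CPM, which was 3.75-, 5.47- and 4.94-fold lower. Maf stood at 78.9, 11.4 and 19.3 CPM, 3.42-, 6.25- and 2.70-fold lower. Osr2 at 12.5 CPM did not differ detectably from stroma at E16.5 (ratio 1.61; 0.777 to 3.41), and at 22.9 and 29.0 CPM it was 2.76-fold (2.00 to 3.88) and 4.87-fold (3.58 to 6.77) lower than in stroma at PND7 and PND14. At least 2-fold lower were 5 of 7 regulators at E16.5, 6 of 7 at PND7 and 6 of 7 at PND14, against 3.28%, 5.07% and 4.59% of all genes tested, and 0 of 7 were at least 2-fold higher at any age, against 7.37%, 6.49% and 5.91%.

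The stroma markers were found in granulosa cells too, and whether as free RNA, in mixed cells or as their own expression was not tested. They summed to 20.8%, 8.06% and 7.04% of their stroma level at E16.5, PND7 and PND14, with single markers from 0% to 54.6%, from 4.78% to 57.3% and from 0% to 29.3%. Tcf21 stood at 9.30%, 2.69% and 3.01% of its stroma level and Pdgfra at 12.9%, 4.70% and 7.35%. Nr2f2 stood at 26.6%, 18.3% and 20.3% and Maf at 29.3%, 16.0% and 37.0%. The Nr2f2 shares lay above the summed share and within the range of single markers at all 3 ages. Osr2 stood at 161%, 36.2% and 20.5%. Several of these values rested on few cells. At E16.5 47 of the 109 Nr2f2 UMIs came from 3 cells, and under the stricter gate the Nr2f2 ratio of granulosa to stroma was 0.0994 instead of 0.266. At PND7 3 cells held 17 of the 23 Tcf21 UMIs. At PND14 3 cells held 25 of the 30 Maf UMIs, and likewise 20 of 28 for Pdgfra and 15 of 24 for Tcf21. Without cells that pass a further gate the E16.5 Tcf21 ratio was 0.0212 instead of 0.093, and the PND7 ratio 0.00244 instead of 0.0269. The PND14 Maf ratio was then 0.136 instead of 0.370.

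Between ages, granulosa cells had less Maf and, from few UMIs, more Osr2 after birth. Maf stood at 78.9, 11.4 and 19.3 CPM at E16.5, PND7 and PND14, and was 6.91-fold lower at PND7 (4.39 to 11.3) and 4.08-fold lower at PND14 (2.72 to 6.31) than at E16.5. Osr2, from 19, 46 and 45 UMIs, was 1.83-fold higher at PND7 and 2.32-fold higher at PND14 than at E16.5, with intervals that excluded 1. The alternatives gave 1.16 to 2.05 at PND7 and 1.72 to 2.56 at PND14. Nr2f2, Pdgfra and Pdgfrb had ratios of 0.603, 0.504 and 0.126 for PND7 over E16.5, with 3 UMIs of Pdgfrb at PND7. At PND7 against E16.5 2 of 7 regulators were at least 2-fold lower (Tcf21 and Maf; 4.85% of all genes were) and 0 higher (3.46%), and at PND14 against E16.5 1 of 7 was lower (Maf; 6.55%) and 0 higher (2.9%). At PND14 against PND7 0 of 6 passed in either direction, against 1.18% higher and 1.43% lower. The Tcf21 call for PND7 was lost under several alternatives, the looser gate among them with a ratio of 0.911, and the share of stroma markers in granulosa cells was lower at both later ages, as given above; its part in these differences was not tested.

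Outside these classes the NR2F genes, Maf and Pdgfrb were found in endothelium, and Tcf21 in smooth muscle or pericyte cells. These comparisons were chosen after their values were seen. In endothelium (21 cells at PND7, 28 at PND14) Pdgfrb stood at 67.2 CPM against 24.1 CPM in stroma at PND7, a ratio of 2.79 (1.82 to 4.20), and made 91.9% of the summed Pdgfra and Pdgfrb UMIs there (78.1 to 98.3). Of those 34 Pdgfrb UMIs 19 came from 3 cells, and PDGFRB is a textbook mark of pericytes, whose markers with those of smooth muscle summed to 638 CPM in this class and 677 CPM in stroma. At PND14 the Pdgfrb ratio of 0.884 (0.602 to 1.27) did not separate endothelium (53.1 CPM) from stroma (60.1 CPM). Nr2f1 stood at 17.8 CPM in endothelium and 3.97 CPM in stroma at PND7 (9 UMIs; ratio 4.48, 1.71 to 11.1), its second highest level among classes of 20 or more cells, while its PND14 ratio of 1.78 had an interval that held 1 (0.684 to 4.15). Of the 9 Nr2f1 UMIs at PND7, 7 came from 3 cells. Nr2f2 at 158 CPM in endothelium and 237 CPM in stroma at PND7 had a ratio of 0.668 (0.525 to 0.842), and at 297 CPM in endothelium and 270 CPM in stroma at PND14 a ratio of 1.10 (0.936 to 1.28). Maf differed in direction between the ages: at PND7 it stood at 31.6 CPM in endothelium and 71.4 CPM in stroma, a ratio of 0.443 (0.249 to 0.734). Maf at 148 CPM in endothelium and 52.2 CPM in stroma at PND14 had a ratio of 2.83 (2.19 to 3.64), but 74 of its 100 UMIs came from 3 cells and the ratio was 1.5 without cycling cells. Tcf21 and Osr2 were 15.8- and 16.0-fold lower in endothelium than in stroma at PND14. At least 2-fold higher in endothelium at PND7 was 1 of 7 regulators (Pdgfrb; 7.85% of genes were) and lower were 3 of 7 (Tcf21, Osr2, Pdgfra; 7.62%). At PND14 higher was 1 of 7 (Maf; 8.31%) and lower 3 of 7 (4.34%).

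In the 29 smooth muscle or pericyte cells of PND14, Tcf21 stood at 470 CPM and Nr2f2 at 301 CPM, against 514 and 270 CPM in stroma, with ratios of 0.916 (0.757 to 1.10) and 1.11 (0.874 to 1.40). Pdgfra at 82.8 CPM was 2.96-fold lower than in stroma (1.94 to 4.76) and Osr2 at 64.0 CPM was 2.21-fold lower (1.36 to 3.82). These 2 of 7 were at least 2-fold lower, against 3.43% of all genes, and 0 were at least 2-fold higher, against 2.69%. Pdgfrb, with 9 UMIs at 33.9 CPM, stood at 56.4% of its stroma level (25.4 to 109), which did not separate the classes. The stroma markers stood at 84.2% of their stroma level in these cells, so the class carries matrix mRNA nearly as stroma does. In immune cells (6, 16 and 9 cells) Maf stood at 353, 202 and 339 CPM at E16.5, PND7 and PND14, and MAF is also known from macrophages. Tcf21 in the same cells stood at 0, 240 and 241 CPM, beside stroma markers of 11.4, 4042 and 2028 CPM. All 32 Tcf21 UMIs of the PND14 immune cells lay in 3 cells, and the part of stroma RNA or of mixed cells was not tested. Surface epithelium cells, gated on genes such as Upk3b and Krt7, numbered 12 at PND7 and 12 at PND14. Maf stood at 121 and 224 CPM in them, and 11 and 12 of these cells passed a further gate.

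Shares of cells with a UMI, taken after each cell was cut down to 5000 randomly drawn UMIs, gave the same order of these classes as the levels for Osr2, Tcf21 and Pdgfrb. No cell was left out, since 0 were shallower. At PND14 Osr2 was found in 25 of 41 theca cells, 43 of 80 Hhip-high cells and 114 of 279 stroma cells. Tcf21 was found in 3 of 41 theca cells, 53 of 80 Hhip-high cells and 240 of 279 stroma cells. Pdgfrb was found in 0 of 41 theca cells, 12 of 80 Hhip-high cells and 66 of 279 stroma cells, and Pdgfra in 10, 50 and 158 of those cells. In stroma at E16.5, PND7 and PND14 Osr2 was found in 3.85%, 24.0% and 40.9% of cells and Maf in 65.4%, 28.2% and 22.2%. Tcf21 was found in 82.7%, 78.0% and 86.0% of them. For background, 0 of 19, 0 of 21 and 0 of 28 endothelial cells had a UMI of Tcf21 or of Osr2 at E16.5, PND7 and PND14, and of 136 erythroid cells at E16.5 3 had a UMI of Nr2f2, 1 of Maf and 1 of Pdgfra. Nr2f1 was in 4 of 104, 7 of 287 and 9 of 279 stroma cells, so its distribution among cells could not be read at this depth.

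**Figure D4:**
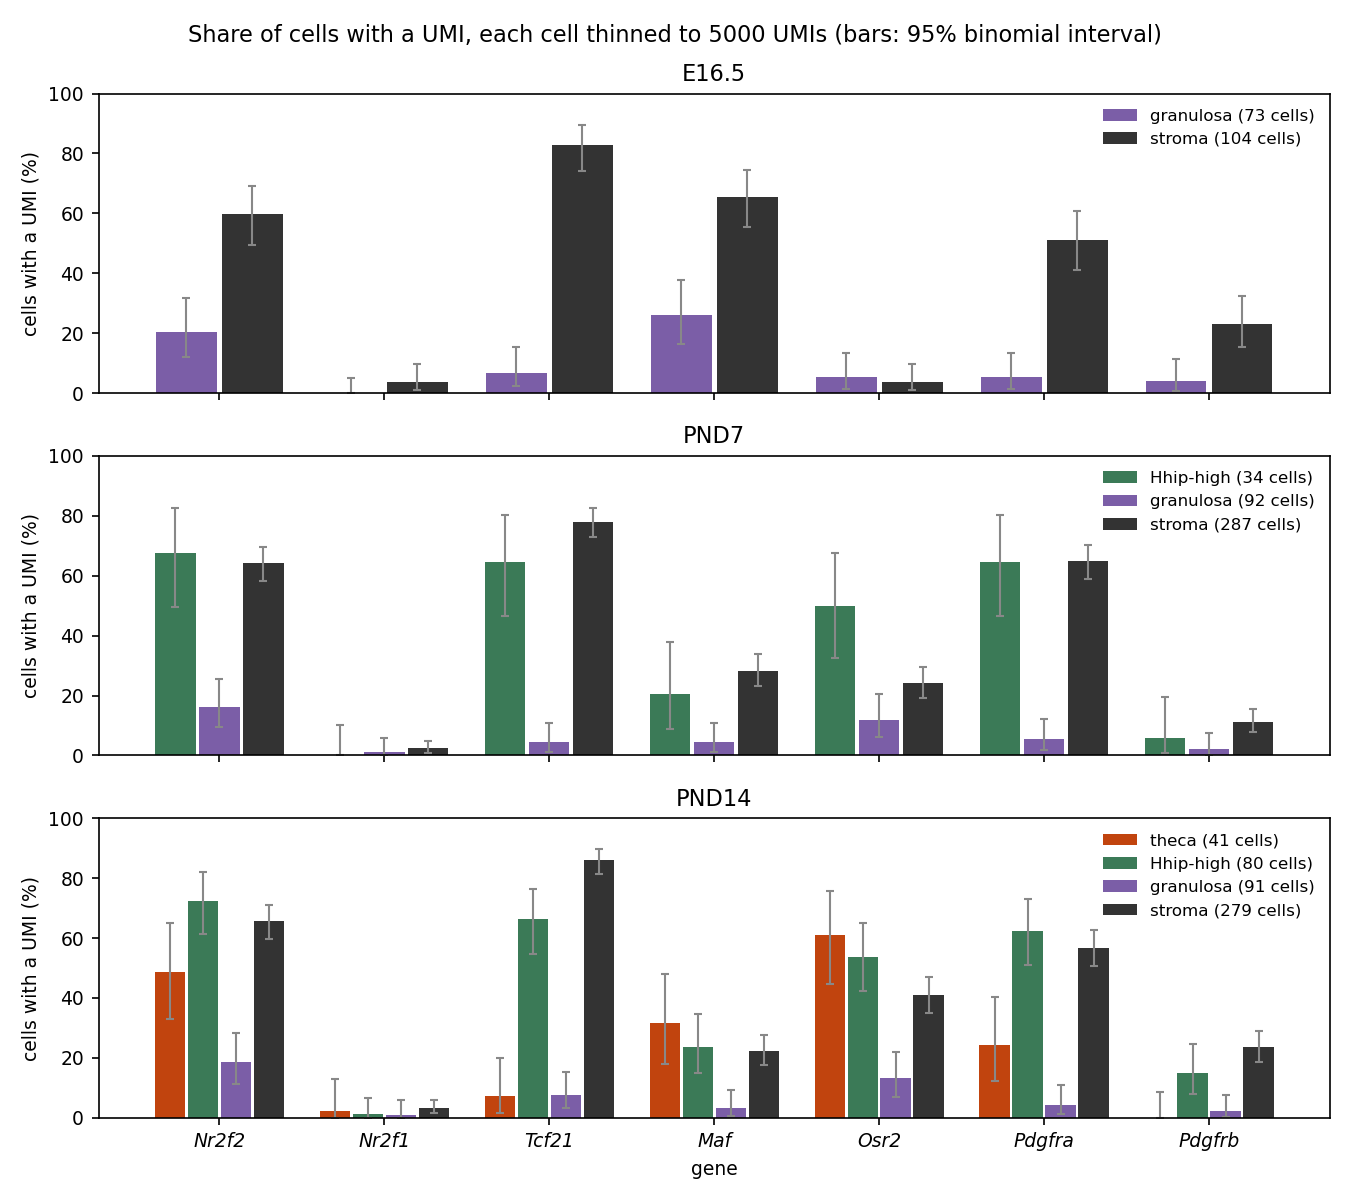
Percent of cells with at least 1 UMI of each regulator in theca, Hhip-high, granulosa and stroma cells, 1 panel per age, each cell thinned to 5000 UMIs. Grey bars are exact binomial 95% intervals. At PND14 Tcf21 is found in 86.0% of stroma cells and 7.32% of theca cells.

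In stroma, Hhip-high cells and theca the regulators were mostly found together in the same cells as often as their separate shares give. The median thinned cell held 3 of the 7 in stroma at each age and in Hhip-high cells at both ages, 2 in theca and 0 in granulosa. In granulosa cells some pairs were found together more often, in small counts. At PND14 these were Nr2f2 and Tcf21 in 4 cells against 1.31 and Nr2f2 and Maf in 3 against 0.560, among others. Other pairs were not, such as Osr2 and Pdgfrb in 0 against 0.264. In PND14 stroma Tcf21 and Pdgfra were found together in 141 of 279 cells, against 136 from the separate shares, Nr2f2 and Tcf21 in 161 against 157, and Tcf21 and Osr2 in 92 against 98.1. In PND7 stroma Maf and Pdgfrb were found together in 15 cells against 9.03, and Osr2 and Pdgfrb in 3 against 7.69. With all UMIs counted these became 30 against 25.3 and 18 against 21.1, so in counts this sparse no pattern is read from them.

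Postnatal stroma was not uniform. Clusters made without the 7 genes split it, and cluster 9, led by Tgfbi, C1qtnf2, Kcnk2, Fhl2 and Lsp1, held 49 cells at PND7 and 30 at PND14. It was set against the largest stroma cluster of the same library, which was chosen after the values were seen and is given with no test. At PND7, Maf stood at 189.6 CPM in cluster 9 and 52.6 CPM in cluster 1, a ratio of 3.60 (2.67 to 4.88). Osr2 stood at 27.1 CPM in cluster 9 and 62.5 CPM in cluster 1, which was 2.31-fold lower (1.33 to 4.28), and Tcf21 stood at 599.5 CPM in cluster 9 and 454 CPM in cluster 1, a ratio of 1.32 (1.16 to 1.51). At PND14 Tcf21 stood at 905 CPM in cluster 9 and 603 CPM in cluster 0, a ratio of 1.5 (1.30 to 1.72), Pdgfra at 367 CPM in cluster 9 and 237 CPM in cluster 0, a ratio of 1.55 (1.24 to 1.92), and Pdgfrb at 124 CPM in cluster 9 and 60.4 CPM in cluster 0, a ratio of 2.05 (1.35 to 3.01). Pdgfra did not separate the clusters at PND7 (ratio 1.06; 0.873 to 1.29). At PND14 the Maf and Osr2 ratios of 1.44 (0.869 to 2.30) and 0.925 (0.615 to 1.35) did not separate the clusters. Nr2f2 was even, with ratios of 1.13 (0.918 to 1.39) at PND7 and 1.01 (0.786 to 1.27) at PND14. The genes that made the clusters vary with these 7, so the clusters are not independent of them.

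**Figure D5:**
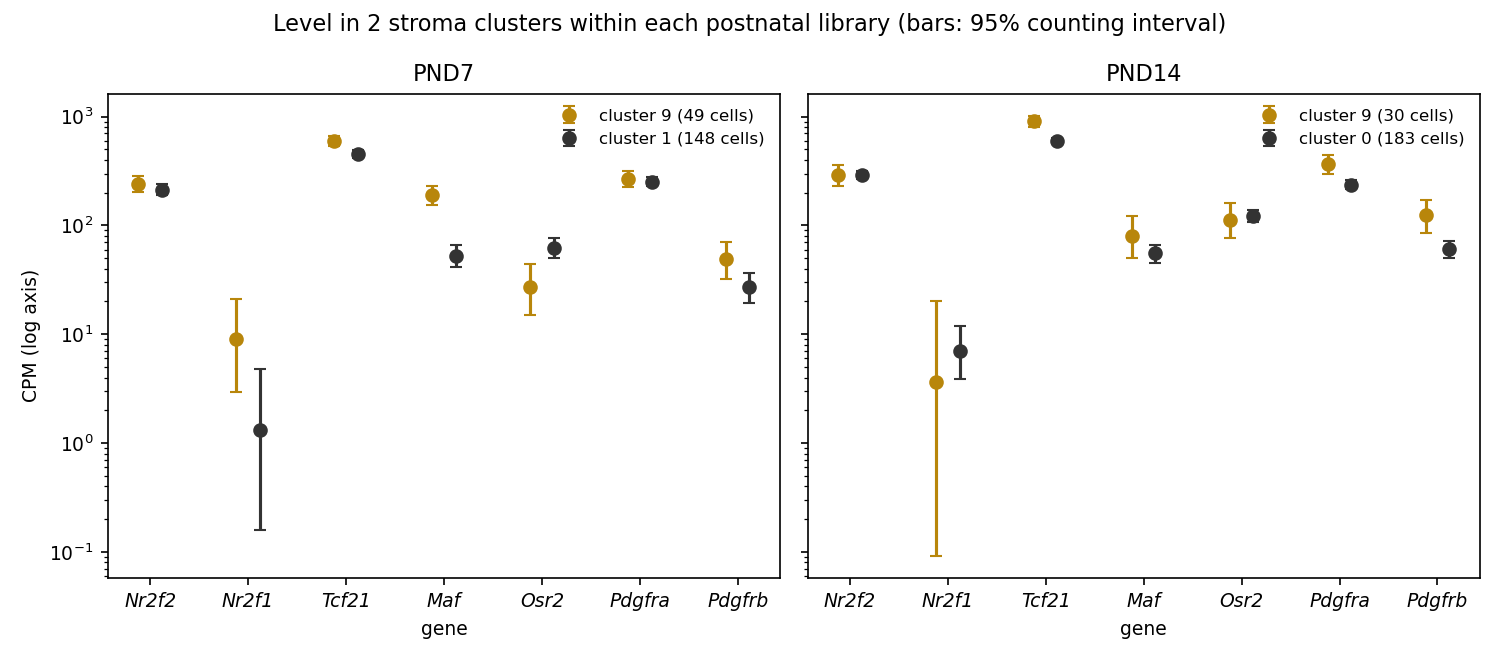
Level of each regulator (CPM, log axis) in stroma cluster 9 and in the largest stroma cluster of the same library, cluster 1 at PND7 and cluster 0 at PND14, with 95% counting intervals. Maf reads 189.6 CPM in cluster 9 and 52.6 CPM in cluster 1 at PND7.

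Cycling stroma cells held less Tcf21 than the other stroma cells of their library, in a comparison added after the values were seen. Tcf21 stood at 290 CPM in cycling and 388 CPM in other stroma at E16.5, at 358 CPM in cycling and 457 CPM in other stroma at PND7, and at 382 CPM in cycling and 539 CPM in other stroma at PND14, with ratios of 0.747 (0.622 to 0.893), 0.784 (0.698 to 0.878) and 0.708 (0.609 to 0.819). Maf ratios were 0.814 (0.661 to 0.996), 0.678 (0.501 to 0.906) and 0.521 (0.291 to 0.873). Pdgfra ratios of 1.09, 0.952 and 1.15 had intervals that held 1 at each age. Pdgfrb was 2.72-fold lower in cycling (11.2 CPM) than in other stroma (30.4 CPM) at PND7 (1.5 to 5.36), while its ratios of 1.33 at E16.5 (0.896 to 1.94) and 1.02 at PND14 (0.677 to 1.48) did not separate them. Nr2f1 had a ratio of 3.04 at E16.5 (12 UMIs in cycling, 10 UMIs in other stroma; 1.20 to 7.85), and Nr2f2 a ratio of 1.20 at PND7 (1.04 to 1.38). On the log2(CPM + 10) scale 0 of 7 regulators passed 2-fold at any age, against 2.08%, 3.26% and 3.56% of all genes higher and 0.593%, 0.481% and 1.03% lower at E16.5, PND7 and PND14.

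Of the gene lists for each regulator's pathway, that of the interstitial factors had the most genes past 2-fold between theca and stroma. Of its 15 measured genes 2 were higher in theca and 5 were lower, beside 5.41% and 4.62% of all genes tested. The list's median was -0.53 on the log2 ratio scale, beside -0.0046 over all genes tested. Higher were Nr5a1, the nuclear receptor that drives steroid enzyme genes, at 256 CPM in theca and 36.8 CPM in stroma (ratio 6.94; 5.54 to 8.72), and Ren1, the renin gene, at 265 CPM in theca and 6.64 CPM in stroma (ratio 39.8; 25.7 to 64.8). Among the lower ones were Osr1, Wt1, Prrx1 and Ebf1. Wt1, a zinc finger factor of the gonadal somatic lineage, stood at 15.8 CPM in theca and 93.6 CPM in stroma, which was 5.91-fold lower (3.47 to 10.9). Osr1, the relative of Osr2, had 5 UMIs in theca and 77 UMIs in stroma and was 4.11-fold lower (1.69 to 13.0), while Osr2 itself was higher.

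Among the partners and inhibitors of TCF21, 0 of 10 measured were at least 2-fold higher in theca and 3 were lower (median log2 ratio -0.53), beside the same 5.41% and 4.62% of all genes, which also hold for the lists that follow. Id3 stood at 113 CPM in theca and 533 CPM in stroma, which was 4.71-fold lower (3.85 to 5.82), Id2 at 189 CPM in theca and 441 CPM in stroma was 2.34-fold lower (1.99 to 2.76), and Twist2 had 3 UMIs in theca and 74 UMIs in stroma. Of 13 measured PDGF ligand and signalling genes 0 were higher and 2 lower (median log2 ratio -0.11): Pik3r1, a regulatory subunit of PI3 kinase, at 19.2 CPM in theca and 65.2 CPM in stroma, and Pdgfrl, with 0 UMIs in theca and 54 UMIs in stroma. Of 8 measured NR2F relatives and cofactors 1 was lower, Nrp2, at 17.0 CPM in theca and 51.0 CPM in stroma, and of 6 MAF relatives none passed 2-fold.

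Across ages in stroma, several interstitial factors were lower later. At PND14 against E16.5, 0 of 15 measured were at least 2-fold higher and 6 were lower (Wt1, Lhx9, Gata6, Nes, Meis1, Meis2), beside 2.23% and 2.75% of all genes tested in this comparison, and the list's median was -0.57, beside -0.076 over all genes (both as log2 ratios). Gata6, a zinc finger factor of the gonadal somatic cells, stood at 20.5 CPM at PND14 and 117 CPM at E16.5, which was 5.69-fold lower (4.32 to 7.57). Of the NR2F list 2 of 10 were higher, both of them neuropilin receptor genes: Nrp2 at 51.0 CPM at PND14 and 10.3 CPM at E16.5 (ratio 4.94; 3.10 to 8.29) and Nrp1 at 43.8 CPM at PND14 and 16.5 CPM at E16.5 (ratio 2.65; 1.80 to 4.01). Of the TCF21 partners Id1 and Id4 were lower, of 11 measured, Id1 at 93.3 CPM at PND14 and 232 CPM at E16.5 (2.49-fold lower; 2.15 to 2.88). Of 13 PDGF genes and 6 MAF relatives none passed 2-fold on that scale.

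Granulosa cells, low in both PDGF receptors, had at least 2-fold more mRNA of 1 PDGF ligand gene than stroma at each age. Which gene passed that threshold differed between the ages. Pdgfc stood at 89.6 CPM in granulosa cells and 10.6 CPM in stroma at PND14 (ratio 8.48; 5.82 to 12.7), and it and Plcg1 were the 2 of 14 measured genes of that list at least 2-fold higher in granulosa cells there (5.91% of all genes were). At E16.5 the 2 higher of 14 were Pdgfa and Gab1 (7.37% of all genes were higher), and at PND7 the 3 higher of 15 were Pdgfb, Plcg1 and Shb (6.49%). Within granulosa cells 0 of 15 genes of that list were at least 2-fold apart at PND7 against E16.5 (3.46% of all genes were higher and 4.85% lower). At PND14 against PND7 1 of 15 was higher, Pdgfc, and 0 were lower (1.18% and 1.43%). No change of ligand gene between E16.5 and PND7 is therefore read from these counts. Osr1 was at least 2-fold lower in granulosa cells than in stroma at all 3 ages, with 1 UMI in granulosa cells and 77 UMIs in stroma at PND14.

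Across the 14 class and age combinations with 20 or more cells, Tcf21 and Pdgfra lay closest together (Pearson r of log2(CPM + 10) 0.907), followed by Nr2f2 with Pdgfra (0.795) and Osr2 with Pdgfra (0.783). The lowest values were 0.077 for Osr2 with Pdgfrb, 0.015 for Nr2f1 with Pdgfra and -0.24 for Nr2f1 with Osr2. The points share libraries and come from 3 of them only, so these values describe the classes and are given with no p. By the same measure, among 10505 genes with 100 or more UMIs, the genes most like Tcf21 were Bicc1, S1pr2, Prrx1, Kdelr3 and Tmem119 (r from 0.961 to 0.971), and those most like Pdgfra were Creb3l1, Gria3, Col16a1, Bicc1 and Gpc3 (0.945 to 0.965). Most like Nr2f2 were Lamb1, Tshz2, Tfpi, Anxa5 and Nfix (0.954 to 0.971), and most like Osr2 were Rerg, Smoc2, Actr3b, Mmd2 and Rtn4rl1 (0.933 to 0.957), of which Rerg, Smoc2 and Mmd2 had their highest level in theca. Maf had Clip2, Hapln1, Rtkn, Clmn and Zfp948 (0.848 to 0.915), Pdgfrb had Pmepa1, Rhoj, Rarg, Adgra2 and Tspan9 (0.900 to 0.939), and Nr2f1 had Adam19, Ndufa4l2, Rras, Cox4i2 and Tbc1d1 (0.853 to 0.903).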

How the data were processed

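The UMI counts were used as the authors deposited them, made with Cell Ranger 2.1.1 on GRCm38 per the submitters' processing notes. Which gene annotation and cell caller were used is not given in the sources used here. Gene symbols and barcodes were taken from the deposited files, and 0 barcodes were shared between libraries. Kept cells had 200 or more genes and no more than 20% of UMIs from mitochondrial genes. Classes were gated on summed marker UMIs per 10000 (20 for stroma, theca and granulosa, 6 for Hhip-high, 60 for smooth muscle, 15 for endothelium, 20 for immune, 1000 for erythroid, 10 for cycling cells), thresholds set after the scores were seen. A cell that passed stroma and a further gate took the other class. No doublet caller was run; an alternative leaves out cells that pass 2 gates. Summed UMIs were scaled to CPM with exact Poisson intervals; intervals of ratios came from the conditional binomial and those of shares from Clopper-Pearson, both exact (SciPy 1.17.1). Counts of genes past 2-fold use log2(CPM + 10) and genes with 10 or more UMIs. Clusters (scanpy 1.11.5, Leiden) served as an alternative. The ratio intervals and the 2-fold calls were checked on simulated Poisson counts of well-detected genes in PND7 and PND14 stroma. Gating, thinning, clustering, low counts and spread between cells were not part of that check. The genes named are all 7 regulators, the 5 genes most like each, and list members past 2-fold or at the ends of a list. The 7 regulators, markers and 5 lists (65 genes) were chosen with earlier results of these data known, and the comparisons of endothelium, smooth muscle, cycling cells and clusters after seeing values. Some genes of the lists are not reported here by name.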

Additional observations from a re-analysis of the deposited data

Results flagged for a closer look

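Against E16.5, Tcf21 at PND7 and PND14 and Pdgfra at PND7 moved in opposite directions in stroma and in granulosa cells. The difference itself was not tested. For PND7 over E16.5 the Tcf21 ratio was 1.18 in stroma and 0.341 in granulosa cells, and the Pdgfra ratio was 1.39 in stroma and 0.504 in granulosa cells. For PND14 over E16.5 the Tcf21 ratio was 1.43 in stroma and 0.461 in granulosa cells. The Pdgfra ratio there was 1.46 in stroma and 0.831 in granulosa cells, and the interval of the latter held 1. For PND14 over PND7 the direction was the same in both classes. Tcf21 ratios were then 1.21 in stroma and 1.35 in granulosa cells, and Pdgfra ratios 1.05 and 1.65. The interval excluded 1 only for Tcf21 in stroma. The stroma markers summed to 1202, 831 and 541 CPM in granulosa cells at E16.5, PND7 and PND14, 25 of the 73 E16.5 granulosa cells lay within 1.5 times of the gate, and the part of either in these ratios was not tested. With a looser gate the Pdgfra granulosa ratio for PND7 over E16.5 was 1.02 and the Tcf21 granulosa ratio for PND14 over E16.5 was 1.20.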

How the results depend on the processing

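Of the 85 regulator ratios whose interval excluded 1, all 85 kept their direction with classes from Leiden clusters and with median-ratio scaling, 84 with the mean over cells, 83 with a looser gate and 83 without cells that pass 2 gates. Without cycling cells all 69 that could be recomputed kept it, and with a stricter gate 75 of 76 did; the rest compare cycling cells or had under 20 cells in a class, and 2 ratios with 0 UMIs in the denominator had no value. The reversed ones are all in granulosa cells against E16.5. For PND7 over E16.5 the Nr2f2 ratio was 1.44 with a stricter gate and 1.02 without cells that pass 2 gates, and the Pdgfra ratio was 1.02 with a looser gate and 1.07 with the mean over cells. For PND14 over E16.5 the Tcf21 ratio was 1.20 with a looser gate and 1.13 without cells that pass 2 gates. The number of regulators at least 2-fold apart was 3 for theca against stroma and against Hhip-high cells, and 5, 6 and 6 for granulosa against stroma, and it stayed within 1.5 times of that under each alternative. It was 1 instead of 2 for Hhip-high over stroma at PND7 with the mean over cells and without cycling cells. For stroma at PND14 over PND7 it was 1 instead of 2 with Leiden classes, a looser gate and the mean over cells, and 0 with a stricter gate and without cycling cells. For granulosa at PND7 over E16.5 it was 1 instead of 2 with a stricter gate, without cells that pass 2 gates, with the mean over cells, without cycling cells and with median-ratio scaling, and 4 with a pseudocount of 1. For granulosa at PND14 over PND7 it was 2 with Leiden classes and 1 with a pseudocount of 1, instead of 0, and at PND14 over E16.5 it was 4 instead of 1 with that pseudocount. For Hhip-high at PND14 over PND7 it was 1 instead of 0 with Leiden classes, a looser gate, median-ratio scaling or a pseudocount of 1. For smooth muscle over stroma it was 1 instead of 2 with a looser gate and without cells that pass 2 gates, and 4 with a pseudocount of 1. For cycling over other stroma it was 1 instead of 0 with a pseudocount of 1 at each age and with the mean over cells at E16.5. The cause was not tested. No paired analysis was possible because each age has 1 library, and for the same reason no library could be left out. Depth limits Nr2f1 most, which had 14 to 22 UMIs in stroma per library.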
